A study of Mus musculus with 3 samples.

Results

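Arterial endothelial cells line the vessels that carry blood towards the capillary bed of the lung. Here they were 482 cells, out of 6934 endothelial cells and 19899 cells of all kinds. A cell counted as endothelial when it held at least 4 unique molecular identifiers (UMIs, each standing for 1 captured RNA molecule) summed over Cldn5, Cdh5, Cd93 and Calcrl, none of Pdgfrb or Col1a2, and under 5% of its UMIs on the surfactant gene Sftpc. It counted as arterial when it also held at least 1 UMI of Gja5, the connexin of arterial gap junctions, and fewer than 2 UMIs of Car4, a carbonic anhydrase of one lung capillary type. Each cell also had 1000 UMIs or more and 200 genes or more, with mitochondrial genes below 25% of its UMIs. The cells were thus chosen by their UMI counts of these genes, whose levels are given as a description and not tested.

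The lungs were those of mice carrying MMTV-HER2/Neu on the FvB background, in which the mammary tumour virus promoter drives the Neu (HER2) oncogene mainly in mammary epithelium. Digested lung was sorted for cells without the leukocyte antigen CD45, and 3 single-cell RNA libraries were made, 1 for each group. The late HER2+ library held CD45- HER2+ cells from mice older than 20 weeks with primary tumours, the early HER2+ library held CD45- HER2+ cells from mice of 14 to 18 weeks without a palpable tumour, and the early HER2- library held CD45- HER2- cells from mice of that same early stage. Neither the number of mice behind a library nor any pooling is stated, and the HER2+ sorts, meant to hold cancer cells, also held endothelial cells. Values given in threes below follow that order: late HER2+, early HER2+, early HER2-.

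The 482 arterial cells were 126, 145 and 211 in the 3 libraries. They were set against 3 groups of endothelial cells without a Gja5 UMI. The general capillary group (no Gja5, Vwf or Car4 UMI) had 128, 591 and 2782 cells. The Vwf-positive group (at least 1 UMI of Vwf, which encodes von Willebrand factor, and fewer than 2 of Car4) had 75, 211 and 625 cells. The Car4-positive group (at least 2 Car4 UMIs) had 66, 282 and 768 cells.

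As background, arterial identity in endothelium is set early in development by VEGF and Notch signalling. The Notch ligand Dll4 and the ephrin Efnb2 mark arteries, while the receptor Ephb4 and the transcription factor Nr2f2 mark veins. Larger arteries carry an elastic wall to which their endothelium contributes matrix. In the lung, arteries feed a capillary mesh of general capillary cells, with genes such as Gpihbp1, Aplnr and Kit, and of large Car4-expressing cells called aerocytes.

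The RefSeq promoters of 4 genes on which the results turn are shown, Gja5 because it chose the cells, Efnb2 and Dll4 as arterial signalling genes that were higher in the arterial cells, and Fbln5 as a vessel wall gene that set apart the arterial cells that hold Vwf. Each runs 5′ to 3′ on the gene's own strand, from 250 bases before to 50 bases after the start, in build GRCm38.p6. Gja5 lies at chr3:97032152-97032451 on the plus strand, Efnb2 at chr8:8661193-8661492 on the minus strand, Dll4 at chr2:119325534-119325833 on the plus strand, and the first of 2 Fbln5 entries at chr12:101819070-101819369 on the minus strand. Capitals mark matches, on either strand, to TGGGAA (the core of the RBPJ motif through which Notch acts), AACAAT (a SOX core) or CACCC (the core bound by Kruppel-like factors).
Gja5: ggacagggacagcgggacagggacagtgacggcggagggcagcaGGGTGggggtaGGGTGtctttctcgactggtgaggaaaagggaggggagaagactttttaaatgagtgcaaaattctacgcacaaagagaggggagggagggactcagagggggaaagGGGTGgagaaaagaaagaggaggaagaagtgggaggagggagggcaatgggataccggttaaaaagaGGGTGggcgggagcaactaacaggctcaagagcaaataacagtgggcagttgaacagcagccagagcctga
Efnb2: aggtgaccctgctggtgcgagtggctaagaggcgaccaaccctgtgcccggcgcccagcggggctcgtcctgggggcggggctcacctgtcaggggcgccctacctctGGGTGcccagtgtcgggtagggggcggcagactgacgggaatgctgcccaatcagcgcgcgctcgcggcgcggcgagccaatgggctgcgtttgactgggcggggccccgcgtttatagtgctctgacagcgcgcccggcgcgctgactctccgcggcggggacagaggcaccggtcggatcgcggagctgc
Dll4: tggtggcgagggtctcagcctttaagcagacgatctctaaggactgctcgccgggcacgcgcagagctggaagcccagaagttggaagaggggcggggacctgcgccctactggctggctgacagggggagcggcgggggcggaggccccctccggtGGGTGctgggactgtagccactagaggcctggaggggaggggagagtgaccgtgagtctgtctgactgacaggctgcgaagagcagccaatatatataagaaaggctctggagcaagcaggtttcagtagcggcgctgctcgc
Fbln5: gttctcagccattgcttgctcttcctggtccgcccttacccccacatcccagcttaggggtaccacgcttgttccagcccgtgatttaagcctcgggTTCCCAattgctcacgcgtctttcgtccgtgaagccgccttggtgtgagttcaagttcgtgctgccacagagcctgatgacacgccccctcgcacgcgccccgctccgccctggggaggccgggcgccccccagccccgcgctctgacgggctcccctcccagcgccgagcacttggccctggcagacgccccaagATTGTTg
The CACCC core matched 4 times in the Gja5 promoter and once each in those of Efnb2 and Dll4, and 57.5% of all 32851 promoter entries held it. TGGGAA and AACAAT each matched once in the Fbln5 promoter and not in the other three shown, and 25.6% and 10.7% of all entries held them. A match describes letters and is no evidence of binding.

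The libraries held 54961019, 49248126 and 25610135 UMIs, and cells passing the filters had medians of 8077, 5318.5 and 3173 UMIs. Arterial cells had medians of 6055.5, 4275 and 3286 UMIs, above the 3635.5, 3081 and 2766.5 of general capillary cells. Pairs of libraries shared between 10 and 18 cell barcodes, of which 1 was an arterial cell, and a doublet caller marked 7 arterial cells in all, 2 in the late library and 5 in the early HER2- library. Leukocyte and mesothelial markers were at 0 in arterial cells, while a few barcodes held RNA of another type. In the late library 1 barcode of 26489 UMIs, a marked doublet, carried 3020 of the 3051 mammary marker UMIs of arterial cells, and in the early HER2- library 3 barcodes carried 137 of 149 fibroblast marker UMIs. Leaving out such barcodes gave arterial shares of the endothelial cells of 28.2%, 10.6% and 4.13%, against 28.1%, 10.3% and 4.16% with them.

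Of the 3 genes named as markers of these cells, Gja5 and Cldn5 were part of the rule. Gja5 stood at 462, 419 and 422 CPM (the gene's UMI count scaled to the total of its group of cells). Cldn5, the main claudin of endothelial tight junctions, stood at 4247, 4311 and 5182 CPM in arterial cells and at 4966, 4616 and 6106 CPM in general capillary cells. The third marker, Sema3g, a semaphorin of arterial endothelium, was independent of the rule. Its level was 481, 519 and 624 CPM in arterial cells, against 345, 384 and 460 CPM in general capillary cells, higher in each library. Sema3g was higher by 0.50 ± 0.10 on the log2 scale (SE, 3 libraries, edgeR quasi-likelihood adjusted p = 0.0093). This call was lost with DESeq2, without the library term, after thinning each cell to 1000 UMIs, and without the late or the early HER2+ library.

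Most members sat near the threshold. Exactly 1 Gja5 UMI was held by 46, 88 and 146 of the arterial cells, and 253, 976 and 4086 cells just outside held none with Car4 below 2. A further 4, 9 and 8 cells held Gja5 but were left out for 2 or more Car4 UMIs. Free RNA in droplets can give such single UMIs. Among alveolar type 2 cells, which should lack Gja5, a Gja5 UMI was found in 0 of 3745 cells in the late library, which allows a share of up to 0.0801%, in 10 of 3596 cells (0.278%) in the early HER2+ library, and in 0 of 32 cells in the early HER2- library, which allows up to 9.38%. Their median depths were 8781, 6972.5 and 8221.5 UMIs. In mesenchymal cells the shares were 0.777% and 1.44% in the HER2+ libraries, but 147 of 595 cells (24.7%) in the early HER2- library, at 70.5 CPM. In that library the share of endothelial cells with Gja5 thus lay below that of mesenchymal cells; what part free RNA had in single-UMI arterial cells there was not tested.

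Arterial cells were the more frequent among endothelial cells in the HER2+ sorts, most of all at the late stage. Their share of the endothelial cells was 28.1% (95% exact binomial interval 24.0 to 32.5), 10.3% (8.73 to 12.0) and 4.16% (3.63 to 4.75). With every cell thinned to 1000 UMIs the shares were 10.7% (7.99 to 13.9), 4.32% (3.32 to 5.52) and 1.77% (1.43 to 2.18), in that same order without overlapping intervals. With 1 library a group there is no test between groups, and the intervals cover counting error only. The CD45- HER2+ and CD45- HER2- gates could themselves set these shares, and sort, stage and library cannot be told apart.

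The order of the shares was that of the arterial cells that also held Vwf, which large-vessel endothelium makes. Vwf-positive arterial cells numbered 115, 117 and 109, and were 25.6% (21.6 to 29.9), 8.29% (6.90 to 9.85) and 2.15% (1.77 to 2.59) of the endothelial cells. Vwf-negative arterial cells numbered 11, 28 and 102, and were 2.45% (1.23 to 4.34), 1.98% (1.32 to 2.85) and 2.01% (1.64 to 2.44), with overlapping intervals. Vwf was thus found in 91.3%, 80.7% and 51.7% of arterial cells, and in 76.2%, 73.1% and 36.5% after thinning. In all other endothelial cells it was found in 27.6%, 18.3% and 13.5%. The split by Vwf was made after these data had been seen.

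**Figure D1:**
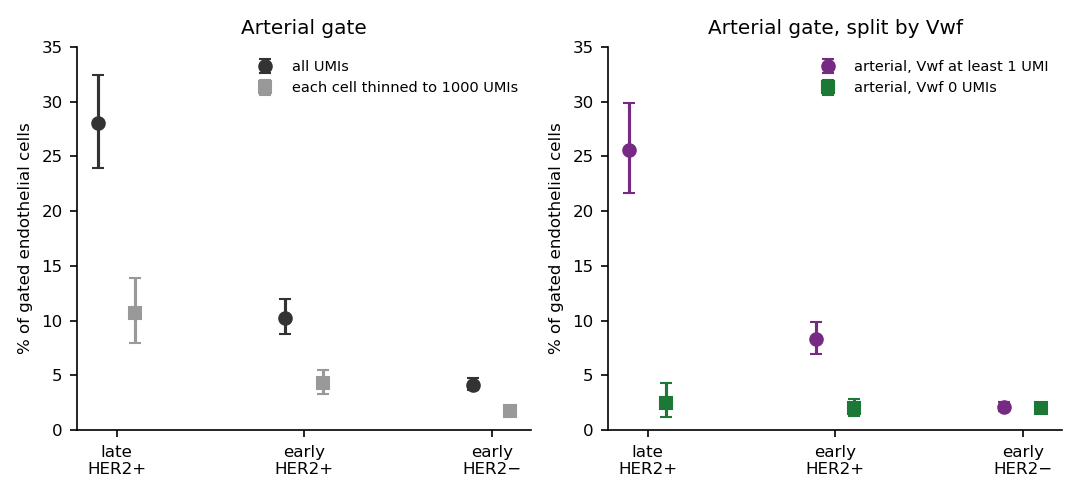
Arterial cells as a percentage of the endothelial cells in each library (points, with 95% exact binomial intervals), on the left with all UMIs and with each cell thinned to 1000 UMIs, on the right split by Vwf. The Vwf-positive arterial share runs from 25.6% in the late HER2+ library to 2.15% in the early HER2- library, while the Vwf-negative share lies between 1.98% and 2.45%.

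Set against general capillary cells, arterial cells had more RNA of arterial signalling genes, of vessel wall matrix and of early response genes, and less of general capillary and MHC genes. UMIs were summed per library and group and compared with edgeR across the 3 libraries, with a term for the library. Of 7818 genes tested, 437 (5.59%) were higher and 407 (5.21%) lower in arterial cells at an adjusted p under 0.05. The libraries differ in sort and stage and the early ones may share mice, so these p-values measure the spread between these 3 libraries only. General capillary cells lack Vwf by rule while arterial cells may hold it, so the Vwf-negative arterial cells are compared separately further on. Of 21 other arterial genes tested, 15 were higher and 2 lower, with a median of 0.83 on the log2 scale against 0.0092 over all genes. The count and the median include Fbln5, Fbln2, Htra1 and Bmx, which passed the filter on low counts through the arterial cells alone. The gene lists were chosen with earlier results of these data known, so such list counts are a description and no independent support.

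Efnb2, the arterial ephrin, was at 982, 1076 and 1054 CPM in arterial cells, against 672, 637 and 625 CPM in general capillary cells. Efnb2 was thus higher by 0.74 ± 0.10 (log2, SE, adjusted p = 0.0007), a call lost only without the early HER2+ library. Efna1, an ephrin of the A class, was at 218, 387 and 346 CPM against 120, 186 and 169 CPM, higher by 1.05 ± 0.12 (adjusted p = 0.00014). Efna5 was the third ephrin gene called higher, on very few UMIs in general capillary cells. Efnb1 and the venous receptor Ephb4 were lower. Efnb1 stood at 177, 189 and 410 CPM in arterial cells and at 453, 422 and 634 CPM in general capillary cells (log2 difference -0.97 ± 0.14), and Ephb4 at 121, 82.7 and 129 CPM against 187, 134 and 164 CPM (-0.49 ± 0.13, adjusted p = 0.034). Of 7 ephrin and Eph genes tested, 3 were higher and 2 lower. Of 7 genes of the venous list, Ephb4 was the 1 called lower and 4 (Selp, Vcam1, Car8 and Amigo2) were higher. The median was 2.66 on the log2 scale. Selp had no UMI in general capillary cells of either HER2+ library and passed the filter on low counts through the arterial cells alone. Its test is not read, and the count and the median include it.

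In the Notch pathway, 3 of 13 tested genes were higher and 2 lower. The receptor Notch1 was at 609, 592 and 590 CPM in arterial cells, against 318, 308 and 364 CPM, higher by 0.90 ± 0.11 (log2, adjusted p = 0.00036) and called under every alternative tried. The ligand Dll4 was at 240, 270 and 286 CPM in arterial cells, against 172, 170 and 165 CPM in general capillary cells. Dll4 was higher by 0.71 ± 0.12 (adjusted p = 0.0025). Nrarp, a target that feeds back on Notch, was at 222, 181 and 128 CPM against 97.4, 64.3 and 70.5 CPM, higher by 1.21 ± 0.15 (adjusted p = 0.00038). The effector Hey1 was at 238, 299 and 435 CPM against 236, 273 and 270 CPM, level in the late library and not called (adjusted p = 0.15). Hes1, another effector, was lower (log2 difference -0.59 ± 0.17, adjusted p = 0.045), and so was Lfng, a glycosyltransferase that modifies Notch receptors, at 17.1, 20.3 and 31.3 CPM against 56.2, 57.6 and 80.8 CPM.

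Matrix genes of the elastic vessel wall showed wide gaps. Of 14 tested, 10 were higher and 1 lower, with a median of 2.72 on the log2 scale. Mgp, an inhibitor of vessel wall calcification, was at 1624, 2856 and 881 CPM in arterial cells, against 118, 153 and 35.5 CPM in general capillary cells, higher by 4.31 ± 0.15 (adjusted p = 1.8e-08). Fbln5, which elastic fibre assembly needs, was at 422, 450 and 166 CPM against 11.2, 7.71 and 4.68 CPM. In both genes the early HER2- library was the lowest of the arterial values and still far above every capillary value. Fbln2 was at 348, 322 and 79.7 CPM against 1.87, 3.09 and 3.32 CPM. Fbln5, Fbln2 and Htra1 passed the filter on low counts through the arterial cells alone. No test is read for these genes, and the count and the median of the list include them. Eln, elastin itself, was at 213, 209 and 153 CPM against 69.3, 80.7 and 87.0 CPM, higher by 1.25 ± 0.16 (adjusted p = 0.00048). Fbn1, Lox, Bgn, Htra1, Timp3 and Adamts1 were also higher. Mfap2, a microfibril protein, was the exception, at 11.4, 14.5 and 31.3 CPM against 78.6, 69.4 and 101 CPM (log2 difference -2.07 ± 0.22). Smooth muscle markers summed to 45.5, 186 and 39.2 CPM in arterial cells and 61.8, 43.7 and 11.9 CPM in general capillary cells, and 11 early HER2+ cells held 98 of the 128 arterial UMIs there. Fibroblast markers summed to 13.7, 18.9 and 195 CPM against 146, 154 and 38.7 CPM, lower in arterial cells of both HER2+ libraries and higher in those of the early HER2- library. The part of either cell type in the matrix values was not tested.

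Genes outside these groups had varied roles, some of them of the arterial list and some named by the size of their difference. Plac8, a small cysteine-rich protein, was at 1469, 1178 and 501 CPM in arterial cells, against 82.4, 53.0 and 33.4 CPM in general capillary cells, higher by 4.22 ± 0.15 (adjusted p = 1.6e-08). Adgrg6, an adhesion G protein-coupled receptor, was at 1035, 927 and 393 CPM against 18.7, 20.6 and 12.6 CPM, higher by 5.33 ± 0.17 (adjusted p = 1.2e-08). Both had every arterial value at least several times every capillary value. Bmx, a kinase of arterial endothelium, was at 183, 144 and 78.4 CPM against 1.87, 8.23 and 6.28 CPM. Cytl1, a secreted cytokine-like protein, was at 626, 767 and 276 CPM against 3.75, 0.514 and 2.83 CPM, and Myof, a membrane repair ferlin, at 203, 242 and 50.9 CPM against 1.87, 4.11 and 0.369 CPM. Stk32a, Cmklr1, Pla2g7 and Sorbs2 were likewise among the 15 highest. Ppp2r2c was at 71.7, 106 and 27.4 CPM in arterial cells and had no UMI in general capillary cells of any library, so it passed the filter on low counts through the arterial cells alone and no test is read for it. Ccdc80, Elovl4 and Sfrp1 had 0 UMIs in both HER2+ capillary sums and between 0.123 and 0.369 CPM in the third, so no fold is given for them.

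The chemokine Cxcl12 was at 1224, 1430 and 2771 CPM in arterial cells, against 541, 595 and 792 CPM, higher by 1.48 ± 0.13 (log2, adjusted p = 1.6e-05). Unlike the matrix genes, it was highest in the early HER2- library. Unc5b, a netrin receptor of arterial and sprouting endothelium, was at 70.5, 79.8 and 82.3 CPM against 50.6, 27.8 and 37.1 CPM (1.16 ± 0.20, adjusted p = 0.0028). The connexin Gja4 was at 358, 598 and 688 CPM against 285, 471 and 536 CPM, higher by 0.40 ± 0.10 (adjusted p = 0.031), a call that several alternatives ended. Jam2, Ocln and Cdh13 were the other junction genes called higher, of 11 tested.

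Among endothelial transcription factors, 4 of 23 were higher and 5 lower. Gata6 was at 228, 302 and 116 CPM in arterial cells, against 20.6, 31.9 and 27.0 CPM in general capillary cells, higher by 2.81 ± 0.23 (log2). Mecom, a zinc-finger factor of arterial endothelium, was at 134, 129 and 75.7 CPM against 11.2, 21.6 and 16 CPM, higher by 2.60 ± 0.21. Sox17, known as a factor of arterial specification, was lower, at 79.6, 81.2 and 290 CPM against 215, 316 and 338 CPM (-1.03 ± 0.25, adjusted p = 0.023). The early HER2- arterial value of Sox17 lay above one of the capillary values, and several alternatives ended the call. Foxf1, a lung mesenchymal and capillary factor, and Ets1 were also lower (-0.68 ± 0.11 and -1.01 ± 0.14).

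The VEGF, semaphorin and neuropilin list had 4 of 22 genes higher and 6 lower. Kdr, the main VEGF receptor, was at 172, 248 and 407 CPM in arterial cells, against 416, 548 and 563 CPM (-0.88 ± 0.15, adjusted p = 0.0027), and Sema3c was at 162, 293 and 717 CPM against 1434, 1800 and 1886 CPM (-2.28 ± 0.25, adjusted p = 0.00013). The ligand Vegfa was higher, at 634, 474 and 618 CPM against 498, 335 and 433 CPM (0.51 ± 0.10, adjusted p = 0.0093), while Vegfc, the lymphatic growth factor, was lower, at 5.69, 8.70 and 31.3 CPM against 31.8, 65.8 and 67.2 CPM. Plxnd1, a semaphorin receptor, was higher, at 323, 309 and 163 CPM against 63.7, 77.7 and 76.0 CPM. In the BMP and TGF-beta list 6 of 20 genes were higher and 3 lower. Bmp4 was at 179, 155 and 137 CPM against 41.2, 61.7 and 62.3 CPM (1.46 ± 0.17, adjusted p = 0.00022). Smad6, an inhibitor that BMP induces, was higher by 0.58 ± 0.11 and Id1, a BMP target, by 0.43 ± 0.10, whereas Tmem100 was lower (-0.49 ± 0.11).

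Of 18 genes of flow response and vascular tone, 5 were higher and 2 lower. Ace, the angiotensin-converting enzyme, was at 1537, 1641 and 2050 CPM in arterial cells, against 1095, 1262 and 1533 CPM (0.48 ± 0.09, adjusted p = 0.0064). Nos3, the endothelial nitric oxide synthase, was at 107, 79.8 and 34.0 CPM against 16.9, 14.9 and 15.6 CPM (1.96 ± 0.27, adjusted p = 0.00076). Klf2, a flow-induced factor, was higher by 0.43 ± 0.09. Thbd, the thrombin receptor thrombomodulin, was lower, at 419, 377 and 1071 CPM against 837, 999 and 1416 CPM (-0.87 ± 0.15). Among adhesion and coagulation genes 6 of 12 were higher and 3 lower. Vcam1, which binds leukocytes, was at 532, 506 and 106 CPM against 16.9, 23.1 and 17.7 CPM (3.78 ± 0.33, adjusted p = 1.9e-05). Plat, the tissue plasminogen activator, was at 868, 619 and 273 CPM against 253, 99.3 and 105 CPM (1.97 ± 0.20).

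Of 12 basement membrane genes 3 were higher and 3 lower. Col4a1, the main type IV collagen chain, was at 266, 287 and 620 CPM against 738, 802 and 916 CPM (-1.10 ± 0.16), and Sparc at 630, 878 and 1545 CPM against 1740, 2263 and 2108 CPM (-1.03 ± 0.16). The laminin chains Lama4 and Lamb2 and the proteoglycan gene Hspg2 were higher. Lyve1, a hyaluronan receptor best known from lymphatic vessels, was at 3677, 3191 and 1081 CPM in arterial cells, against 627, 343 and 386 CPM (2.46 ± 0.26, adjusted p = 9.1e-05). Of the 7 lymphatic markers, Prox1, Mmrn1, Pdpn, Reln and Thy1 were at 0 in arterial cells of all libraries, and the sum of the list (3725, 3242 and 1162 CPM) was almost all Lyve1.

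General capillary genes were lower, 5 of 7, with a median of -0.97. Gpihbp1, which holds lipoprotein lipase at the capillary wall, was at 605, 775 and 1981 CPM in arterial cells, against 1803, 1899 and 2342 CPM (-0.97 ± 0.20, adjusted p = 0.0079). The apelin receptor Aplnr was at 37.5, 30.5 and 138 CPM against 176, 214 and 293 CPM (-1.78 ± 0.25, adjusted p = 0.00076), and the receptor kinase Kit at 59.2, 66.7 and 238 CPM against 315, 288 and 425 CPM (-1.59 ± 0.24, adjusted p = 0.0013). In each of these genes the early HER2- arterial value stood nearer to the capillary values than those of the HER2+ libraries. Cd36, a fatty acid receptor, was at 1246, 1179 and 2279 CPM against 2698, 2546 and 2864 CPM (-0.80 ± 0.14), while Lpl (adjusted p = 0.13) and Plvap (adjusted p = 0.64) were not called. Scn7a, Nostrin, Pmp22, Hopx, Pard6g and Prx were among the 15 lowest genes. Ager, an alveolar type 1 gene, was the lowest, at 20.5, 17.4 and 1.31 CPM against 142, 173 and 37.3 CPM, beside alveolar type 1 marker sums of 188, 245 and 350 CPM in arterial cells and 749, 886 and 587 CPM in general capillary cells, whose part in the Ager result was not tested.

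Genes of interferon response and MHC class I were lower in 11 of 23 cases, with a median of -0.45. B2m, the shared light chain, was at 1801, 1436 and 2122 CPM against 3056, 2342 and 2713 CPM (-0.56 ± 0.10, adjusted p = 0.0044), and H2-K1 at 2503, 2721 and 3890 CPM against 4005, 3998 and 4863 CPM (-0.47 ± 0.09). The MHC class II genes Cd74 and H2-Ab1 were also lower, Cd74 at 813, 783 and 1934 CPM against 4067, 3021 and 3305 CPM (-1.62 ± 0.22, adjusted p = 0.00068). Early response genes, which dissociation of tissue can induce, were higher in 9 of 18 cases, with a median of 0.47. Fos was at 315, 593 and 377 CPM against 223, 220 and 198 CPM (1.04 ± 0.16, adjusted p = 0.0016), and Egr1 at 110, 309 and 235 CPM against 67.4, 96.7 and 114 CPM (1.27 ± 0.17).

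**Figure D2:**
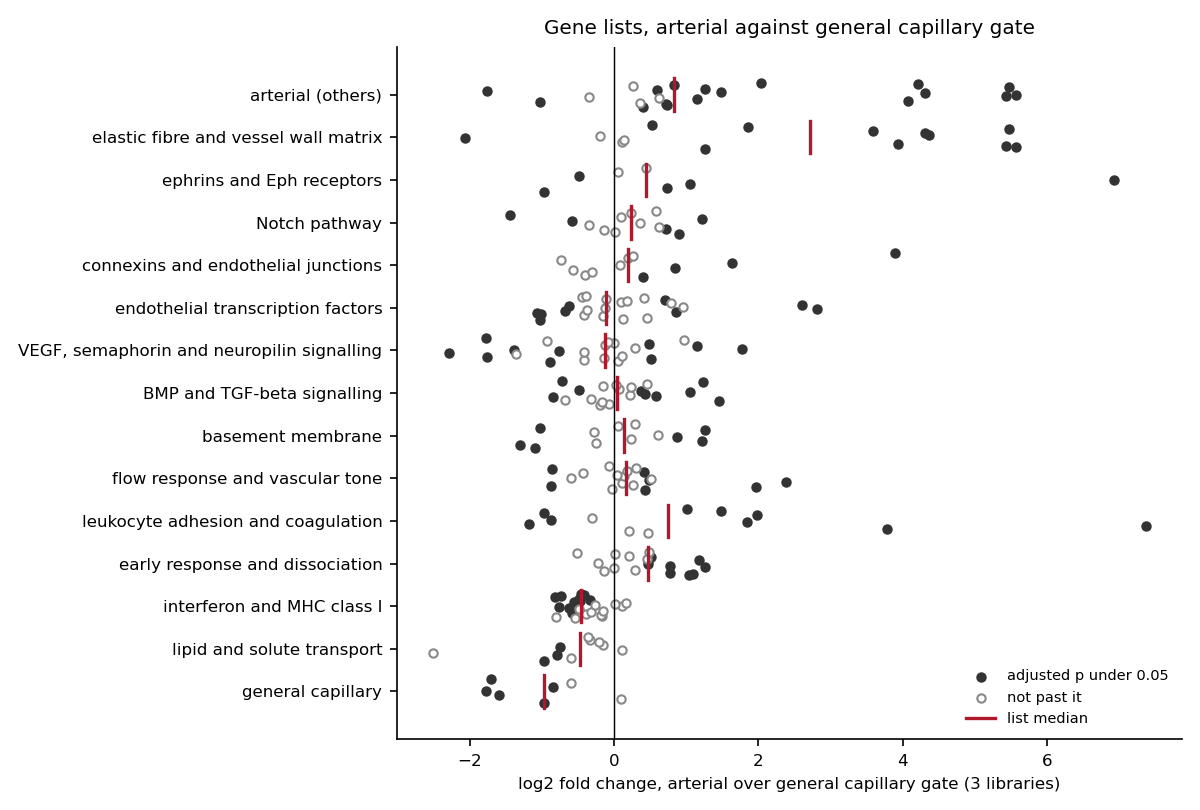
Log2 fold change of each tested gene in 15 lists, arterial over general capillary cells in 3 libraries; filled points have an adjusted p under 0.05, open points do not, and red bars mark the list medians. The matrix list has the highest median, 2.72, and the general capillary list the lowest, -0.97. The matrix median includes Fbln5, Fbln2 and Htra1, which passed the filter on low counts through the arterial cells alone. The points of Efna5 and Selp rest on 1 to 3 UMIs in capillary cells.

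Arterial cells with and without Vwf differed in many genes, as the plot of levels by group shows. Vwf-positive against Vwf-negative arterial cells had 248 genes higher (4.41%) and 198 lower (3.52%) of 5627 tested. Vwf-positive cells had more matrix, with 9 of 10 genes higher, 1 lower and a median of 2.99. Of these, Fbln2 and Fbln5 had no UMI or very few in Vwf-negative cells. They passed the filter on low counts through the Vwf-positive cells alone, and the count and the median include them. Mfap2, the gene called lower, passed it through the Vwf-negative cells alone and is included too. General capillary genes were lower in 6 of 6 cases, with a median of -1.82. Median depths were 6445, 4289 and 3526 UMIs in Vwf-positive cells, and 5419, 4169.5 and 3115.5 UMIs in Vwf-negative cells.

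Mgp was at 1733, 3391 and 1542 CPM in Vwf-positive arterial cells, against 52.5, 89.6 and 105 CPM in Vwf-negative ones, higher by 4.49 ± 0.22 (log2, SE, 3 libraries, edgeR adjusted p = 5.8e-12). Fbln5 was at 451, 533 and 305 CPM against 0, 17.9 and 2.84 CPM, and no fold is given for it. Plac8 was at 1561, 1397 and 849 CPM against 140, 44.8 and 93.7 CPM (3.69 ± 0.23, adjusted p = 2.7e-10). No Vwf-negative value of these 3 genes came near a Vwf-positive one. Bmx was at 193, 164 and 128 CPM against 35, 35.8 and 19.9 CPM, and Lyve1 at 3895, 3761 and 1661 CPM against 542, 242 and 400 CPM. Vcam1 was at 566, 597 and 172 CPM against 52.5, 35.8 and 28.4 CPM (3.29 ± 0.29). Cytl1 was at 669, 916 and 510 CPM in Vwf-positive cells and had no UMI in Vwf-negative cells of any library. Fbln2, Myof, Rbp7 and Cd55 were also without a UMI in Vwf-negative cells, and stood between 74.9 CPM (Rbp7 in the early HER2- library) and 384 CPM (Fbln2 in the early HER2+ library) in Vwf-positive ones.

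In the other direction, Gpihbp1 was at 494, 492 and 1625 CPM in Vwf-positive arterial cells, against 2204, 2240 and 2400 CPM in Vwf-negative ones (-1.52 ± 0.21, adjusted p = 3.3e-05). Lpl, the lipase that Gpihbp1 holds, was at 98.6, 46.7 and 338 CPM against 805, 573 and 511 CPM (-2.04 ± 0.35). Kit was at 42.6, 39.8 and 133 CPM against 297, 206 and 361 CPM, and Sema3c at 110, 142 and 442 CPM against 910, 1075 and 1039 CPM (-2.20 ± 0.24). In each of these genes every Vwf-positive value lay below every Vwf-negative one, and how many of all genes do so was not counted. The lowest named by rule were Mfap2, Car14, Pard6g, Nptx1, Pde9a and Rassf4. They rest on 3 to 11 UMIs in each Vwf-negative sum of the HER2+ libraries. All but Nptx1 passed the filter on low counts through the Vwf-negative cells alone, so no fold or test is read for them. Early response genes were higher in Vwf-positive cells in 10 of 18 cases, with Fos at 327, 672 and 544 CPM against 140, 188 and 182 CPM (1.66 ± 0.20).

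Several arterial signalling genes were not called between arterial cells with and without Vwf. Efnb2 was at 967, 1020 and 1035 CPM in Vwf-positive arterial cells, and at 1190, 1371 and 1076 CPM in Vwf-negative ones (-0.19, adjusted p = 0.54). The log2 differences of Sema3g (-0.02, adjusted p = 0.99), Dll4 (0.23, adjusted p = 0.65), Ace (-0.22, adjusted p = 0.41) and Efna1 (0.18, adjusted p = 0.74) were not called either. With 11, 28 and 102 Vwf-negative cells these misses do not show that the levels are equal. Of 12 Notch genes 1, Nrarp, was called, where 4.41% of all 5627 genes tested were higher and 3.52% lower.

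**Figure D3:**
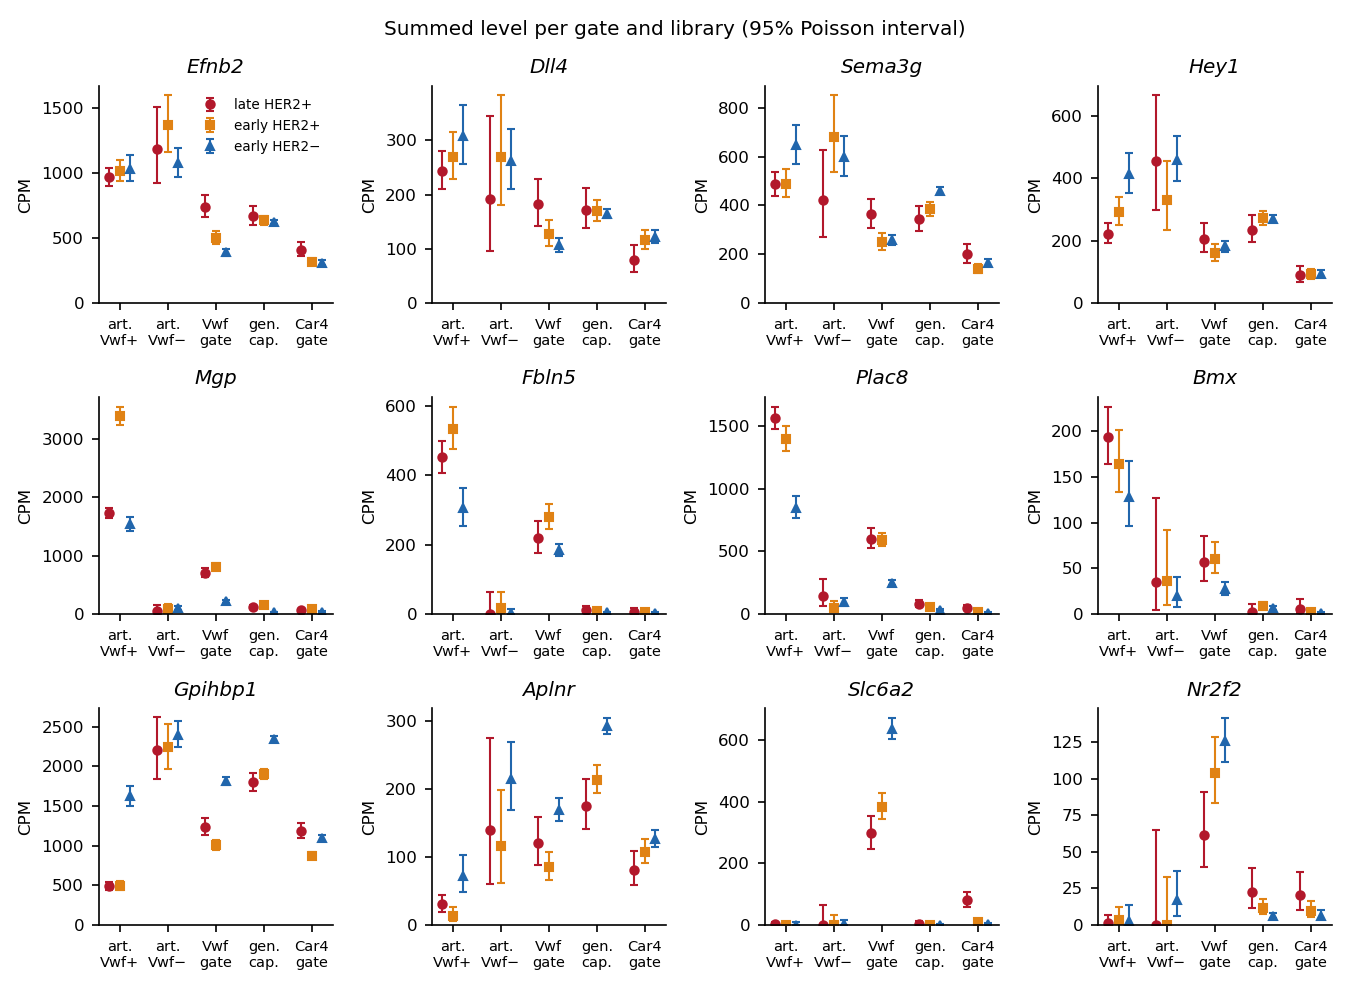
CPM of 12 genes (points, with 95% Poisson intervals of counting error) in Vwf-positive arterial, Vwf-negative arterial, Vwf-positive non-arterial, general capillary and Car4-positive cells of the 3 libraries. Efnb2 is highest in both arterial groups, Mgp, Fbln5, Plac8 and Bmx in Vwf-positive arterial cells, and Slc6a2 and Nr2f2 in Vwf-positive cells without Gja5; Gpihbp1 in Vwf-negative arterial cells stands near its general capillary level.

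Vwf-negative arterial cells and general capillary cells are alike in lacking Vwf and differ by the rule in Gja5 and in a single Car4 UMI at most. The former are named arterial by the Gja5 gate alone. The early HER2- library, where 24.7% of mesenchymal cells held Gja5, gave 102 of them, and the part of free RNA was not tested. Of 6025 genes tested between the Vwf-negative arterial and the general capillary cells, 34 (0.564%) were higher and 20 (0.332%) lower. Efnb2, at the levels given above, was higher than the 672, 637 and 625 CPM of general capillary cells by 0.89 ± 0.10 (log2, adjusted p = 1.9e-06). Notch1 was at 455, 555 and 514 CPM against 318, 308 and 364 CPM (0.60 ± 0.12, adjusted p = 0.0051). Hey1, not called in arterial cells as a whole, was at 455, 331 and 460 CPM against 236, 273 and 270 CPM (0.67 ± 0.13, adjusted p = 0.0032). Efna1 was higher by 0.94 ± 0.14 (adjusted p = 0.00016), Ace by 0.62 ± 0.09 (adjusted p = 0.00011), Cxcl12 by 0.93 ± 0.11 (adjusted p = 4.9e-06) and Sema3g by 0.50 ± 0.12 (adjusted p = 0.03), while Dll4 missed the threshold (adjusted p = 0.054). All 5 of the 17 other arterial genes called (Efnb2, Hey1, Cxcl12, Stmn2 and Tm4sf1) were higher, and 12 were not called.

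Esm1, a proteoglycan that VEGF induces in endothelium, was at 227, 466 and 557 CPM in Vwf-negative arterial cells, against 210, 156 and 125 CPM in general capillary cells, higher by 1.74 ± 0.18 (adjusted p = 8.3e-07). In the late library, with 11 arterial cells, the Esm1 levels were close together. Adgrg6 was at 105, 98.5 and 111 CPM against 18.7, 20.6 and 12.6 CPM. In this comparison it passed the filter on low counts through the arterial cells alone, so no test is read for it. The capillary genes Lpl, at 805, 573 and 511 CPM against 301, 318 and 376 CPM (0.73 ± 0.13, adjusted p = 0.0015), and Plvap, at 2974, 3843 and 4498 CPM against 2459, 2574 and 3421 CPM (0.42 ± 0.08, adjusted p = 0.003), were higher rather than lower. Gpihbp1 (0.15, adjusted p = 0.84), Mgp (0.45, adjusted p = 0.91) and Plac8 (1.0, adjusted p = 0.11) were not called. No matrix gene of 8 tested was called by edgeR, with 2 higher and 2 lower at an unadjusted p under 0.05, and no early response gene of 17, with 1 higher and 1 lower at that level. Of all 6025 genes 0.564% were called higher and 0.332% lower, so these counts do not show that such differences are absent. Lower genes included Sema3c, at 910, 1075 and 1039 CPM against 1434, 1800 and 1886 CPM (-0.79 ± 0.09), Sgk1, Cd34, Scn7a and Cd74, the last at 1610, 2293 and 2456 CPM against 4067, 3021 and 3305 CPM (-0.62 ± 0.11, adjusted p = 0.001).

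Vwf-positive arterial cells against the same general capillary cells had 642 genes higher (8.62%) and 620 lower (8.32%) of 7448. There, 15 of 21 other arterial genes and 10 of 13 matrix genes were higher, and 6 of 7 general capillary genes lower. The arterial and matrix counts include Fbln5, Fbln2 and Htra1, and the arterial count Bmx. These genes passed the filter on low counts through the arterial cells alone. This comparison differs in Vwf by rule on both sides.

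Levels also differed by how many Gja5 UMIs a cell held, a number that depends on depth as well as on expression. Vwf was found in 29.6%, 21.6% and 15.3% of cells with 0 Gja5 UMIs and Car4 below 2. It was found in 80.4%, 70.5% and 42.5% of cells with 1 Gja5 UMI, and in 100%, 96.8% and 84.6% of cells with 3 or more. Efnb2 in the early HER2- library was at 564 CPM in cells with 0 Gja5 UMIs, and at 1074, 988 and 1065 CPM in cells with 1, 2 and 3 or more. The step in Efnb2 thus came at the first UMI and was followed by no further rise. Mgp in that library was at 65.7, 106, 676 and 4518 CPM over the same 4 bins, and in the early HER2+ library at 327, 1520, 1777 and 6388 CPM. Gpihbp1 in the early HER2+ library was at 1649, 1024, 780 and 229 CPM. In Mgp most of the height thus came with the cells richest in Gja5, and Gpihbp1 ran the other way. The bins are a description of cells within libraries and carry no test.

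**Figure D4:**
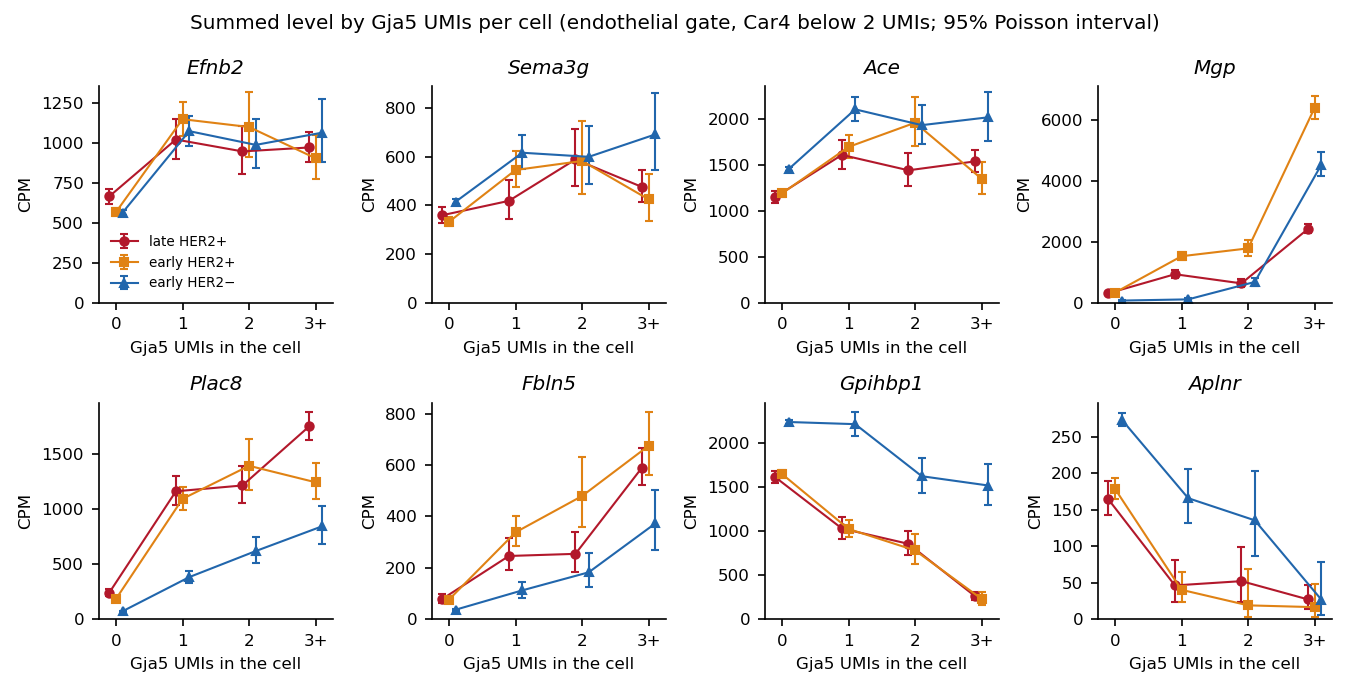
CPM of 8 genes (with 95% Poisson intervals) in endothelial cells with Car4 below 2 UMIs, by the number of Gja5 UMIs in the cell and by library. Efnb2, Sema3g and Ace stand higher from the first Gja5 UMI on with no steady further climb, Mgp and Fbln5 are highest in cells with 3 or more, and Gpihbp1 and Aplnr are lowest there.

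Thinned to 1000 UMIs, the genes whose share of cells most resembled that of Gja5 (found in more arterial than general capillary cells) were Plac8, Adgrg6, Atp13a3, Lyve1, Abi3bp, Mgp, Timp3, Fam3c, Plat and Cxcl12, by the mean difference over the 3 libraries. Plac8 was found in 61.9%, 52.4% and 26.1% of arterial cells, against 6.25%, 3.21% and 2.30% of general capillary cells, and Adgrg6 in 58.7%, 42.1% and 25.6% against 2.34%, 2.37% and 1.26%. At the other end, Sema3c was found in 7.94%, 14.5% and 36.0% of arterial cells, against 64.1%, 70.6% and 71.3%. Cd74 was found in 24.6%, 30.3% and 61.1%, against 81.2%, 78.2% and 77.0%. At equal depth, too, the early HER2- arterial cells were the closest to capillary cells in each of these 4 genes.

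Against Vwf-positive cells without Gja5, arterial cells were higher in arterial genes and lower in venous ones. Of 7795 genes tested, 163 (2.09%) were higher and 176 (2.26%) lower. The venous list had 9 of 10 genes lower, with a median of -2.01. Of these, Slc6a2, Nr2f2 and Bst1 had from 0 to 7 UMIs in each arterial sum. They passed the filter on low counts through the Vwf-positive cells alone, so no test is read for them. The count and the median include them. Slc6a2, a noradrenaline transporter found in lung veins, was at 3.41, 0 and 1.31 CPM in arterial cells, against 297, 383 and 637 CPM in Vwf-positive cells. Nr2f2, the venous transcription factor, was at 1.14, 2.90 and 9.14 CPM against 61.4, 104 and 126 CPM. These venous genes were thus at or near 0 in arterial cells of all libraries. Vegfc was at 5.69, 8.70 and 31.3 CPM against 115, 227 and 331 CPM (-3.88 ± 0.22), and Ptgs1, which makes prostaglandin precursors, at 6.83, 23.2 and 22.2 CPM against 76.2, 189 and 225 CPM. Bst1, Fgl2, Fabp4, Selp and Ephb4 were also lower, Selp at 22.8, 53.7 and 17.0 CPM against 34.4, 112 and 63.0 CPM.

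Of 21 other arterial genes 12 were higher and 1 lower against the Vwf-positive cells, with a median of 0.82. Efnb2 was above their 742, 503 and 390 CPM by 1.0 ± 0.15 (log2, adjusted p = 0.00054), Dll4 above their 182, 127 and 106 CPM by 1.03 ± 0.16 (adjusted p = 0.001), and Hey1 above their 206, 161 and 182 CPM by 0.85 ± 0.16 (adjusted p = 0.0045). Sema3g was above their 364, 250 and 259 CPM by 0.94 ± 0.14 (adjusted p = 0.00066). Of 14 Notch genes 5 were higher (Notch1, Dll4, Hey1, Hey2 and Nrarp) and 1 lower. Hey2 was at 69.4, 55.1 and 6.53 CPM in arterial cells, against 27.0, 16.4 and 2.20 CPM.

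Mgp was at 710, 810 and 215 CPM in the Vwf-positive cells, so arterial cells were higher by 1.70 ± 0.13 (adjusted p = 1.2e-06), and Fbln2, Htra1, Fbn1 and Lox were higher too. Fbln5 (0.50, adjusted p = 0.15) and Vcam1 (-0.24, adjusted p = 0.88) were not called. The highest named by rule included Sfrp1, Rbp7, Sulf1 and Fblim1, with Sulf1, a heparan sulphate sulphatase, at 402, 500 and 183 CPM against 93.4, 134 and 34.8 CPM (2.13 ± 0.14). Early response genes were lower here in 10 of 18 cases (median -0.50), with Egr1 at 110, 309 and 235 CPM in arterial cells, against 118, 465 and 419 CPM in Vwf-positive cells (-0.57, adjusted p = 0.037). With only the Vwf-positive arterial cells set against them, 292 genes (3.92%) were higher and 355 (4.76%) lower of 7452. The venous list again had 9 of 10 genes lower, Slc6a2, Nr2f2 and Bst1 included. Of 21 other arterial genes 15 were higher, and early response genes were lower in 9 of 18 cases.

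Against Car4-positive cells, all 8 tested genes of the aerocyte list were lower in arterial cells, with a median of -4.66. Car4, which chose these groups, is not among the 8. Fibin, with 0, 1 and 2 UMIs in the arterial sums, Apln and Tbx2 passed the filter on low counts through the Car4-positive cells alone. No test is read for these genes, and the count and the median include them. Of 7867 genes 804 (10.2%) were higher and 783 (9.95%) lower, the largest number of any of these comparisons. Apln, the apelin ligand, was at 4.55, 2.90 and 3.92 CPM in arterial cells, against 197, 215 and 250 CPM in Car4-positive cells. Tbx2 was at 6.83, 8.70 and 11.8 CPM against 222, 406 and 362 CPM. Ednrb, an endothelin receptor, was at 116, 66.7 and 35.3 CPM against 461, 726 and 886 CPM (-3.19 ± 0.33), although arterial cells had more of it than general capillary cells, at 13.1, 14.9 and 8.13 CPM. Kdr was at 172, 248 and 407 CPM against 1256, 1895 and 2105 CPM (-2.66 ± 0.14), and Emp2 at 181, 261 and 175 CPM against 2050, 3131 and 2689 CPM. Ccdc184 and Xpnpep2 had no UMI in arterial cells.

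Other arterial genes were higher than in Car4-positive cells in 17 of 21 cases, with 1 lower and a median of 1.84. The count and the median include Fbln2, which had 0, 2 and 5 UMIs in the Car4-positive sums. It passed the filter on low counts through the arterial cells alone. Efnb2 was above their 412, 320 and 309 CPM by 1.65 ± 0.13 (log2), Cxcl12 above their 182, 164 and 226 CPM by 3.25 ± 0.16, and Mgp above their 62.5, 88.0 and 41.1 CPM by 4.77 ± 0.16. Of 13 Notch genes 8 were higher and 3 lower (Hes1, Lfng and Mfng).

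Between libraries, values are set side by side without a test, as each group is 1 library. A gene counted as different when its CPM ratio passed 1.5-fold, among genes with at least 20 UMIs, with exact 95% intervals that cover counting error only. In late against early HER2+ arterial cells 650 of 7519 genes (8.64%) passed that fold higher and 719 (9.56%) lower, and 814 higher and 583 lower with TMM scaling. The median log2 ratio over all genes was -0.042.

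Of 18 early response genes 11 were past the fold lower in the late library and 1 higher, with a median of -0.83. The mammary genes were past it higher in 5 of 5 cases, nearly all in the 1 barcode described above, and smooth muscle genes lower in 2 of 2. Ier3 was at 253 CPM in late and 992 CPM in early HER2+ arterial cells (ratio 0.255, 0.218 to 0.297), Egr1 at 110 and 309 CPM (0.357), Fos at 315 and 593 CPM (0.531), and Atf3 at 63.7 and 171 CPM (0.372). General capillary cells gave ratios of 0.450 for Ier3, 0.697 for Egr1 and 0.400 for Atf3, with 4 of the list past the fold lower. The heat-shock gene Hspa1b ran the other way, at 331 CPM in late and 129 CPM in early HER2+ arterial cells (2.56), and at 1.90 in capillary cells. Sox18, a SOX factor of endothelium, had the highest ratio, at 642 CPM in late and 94.3 CPM in early HER2+ arterial cells (6.81, 5.26 to 8.94). General capillary cells gave 6.87 for Sox18, so it was shared with them. Tagln, a smooth muscle gene, was at 29.6 CPM in late and 109 CPM in early HER2+ arterial cells (0.272), beside the smooth muscle marker sums given above.

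Several arterial signalling genes lay within 1.5-fold between the HER2+ libraries, with ratios of 0.912 for Efnb2, 0.927 for Sema3g, 0.890 for Dll4 and 1.03 for Notch1. Efna1 did not, at 218 CPM in late and 387 CPM in early HER2+ arterial cells (0.564, 0.466 to 0.681), with 0.644 in general capillary cells. Of 7 ephrin and Eph genes Efna1 and Epha4 were past the fold lower and Epha2 higher, and of 14 Notch genes Dll1 was past it higher. Of 20 other arterial genes only Gja4 (0.600, 0.516 to 0.696) and Mgp (0.568, 0.531 to 0.609) passed the fold, both lower in the late library. Gja4 had nearly that same ratio in general capillary cells, 0.605.

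In early HER2+ against early HER2- arterial cells 876 of 7468 genes (11.7%) passed the fold higher and 1115 (14.9%) lower, and 976 higher and 990 lower with TMM scaling, and the median log2 ratio was -0.035. Matrix genes were past it higher in 8 of 14 cases and lower in 3. The smooth muscle genes Acta2 and Tagln were past it higher too, Tagln at 109 CPM in HER2+ and 27.4 CPM in HER2- arterial cells, as were 5 of 5 alveolar type 2 genes measured, which summed to 363 and 3.92 CPM. The part of these cell types in the matrix ratios was not tested. Mgp was at 2856 CPM in HER2+ and 881 CPM in HER2- arterial cells (3.24, 2.97 to 3.54), and at a ratio of 2.20 among Vwf-positive arterial cells. Fbln2 was at 322 and 79.7 CPM (4.04), and at 2.61 among Vwf-positive arterial cells and 0.928 among general capillary cells. Vcam1 was at 506 CPM in HER2+ and 106 CPM in HER2- arterial cells (4.79, 3.75 to 6.17), with 3.48 among Vwf-positive arterial and 1.31 among general capillary cells. Among Vwf-positive arterial cells the ratios of these 3 genes were smaller than among all arterial cells and still past the fold. Map1b, a microtubule protein, was at 345 and 60.1 CPM (5.75), with 6.27 in capillary cells. Ccdc80, Myof, Prnp, Cdkn1c and S100a6 were the other named genes higher.

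Lower in HER2+ arterial cells were 5 of 6 general capillary genes, with a median of -1.51, against none of the list past the fold in either direction among general capillary cells. Gpihbp1 was at 775 CPM in HER2+ and 1981 CPM in HER2- arterial cells (0.391, 0.354 to 0.432), at 0.303 among Vwf-positive arterial cells and 0.811 among general capillary cells. Sox17 was at 81.2 CPM in HER2+ and 290 CPM in HER2- arterial cells (0.280, 0.205 to 0.377), at 0.226 among Vwf-positive arterial cells and 0.934 among general capillary cells. Aplnr was at 30.5 and 138 CPM (0.220), and Cxcl12 at 1430 and 2771 CPM (0.516). Hmcn1, a large matrix protein, was at 132 and 543 CPM (0.243), with 0.410 in capillary cells. Wif1, Pmp22, Kit, Scn7a and Adgrl3 were the other named genes lower. Within the Vwf-positive arterial cells 5 general capillary genes were also past the fold lower, as were 6 of the interferon and MHC class I list.

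Several arterial signalling genes lay within the fold, at ratios of 1.02 (0.923 to 1.13) for Efnb2, 1.0 for Notch1, 0.943 for Dll4 and 0.832 for Sema3g. Hey1 was within it too at 0.687. Past the fold were 6 of 21 other arterial genes higher (Bmx, Fbln5, Fbln2, Mgp, Htra1 and Plac8) and 3 lower (Sox17, Cxcl12 and Vegfc). Of 14 Notch genes Hey2 was higher and Dll1, Hes1 and Lfng lower, and of 7 ephrin and Eph genes 1 was higher and 3 lower. Of 20 VEGF, semaphorin and neuropilin genes 2 were higher and 10 lower. Whether the HER2 gate, the mice or the library gave a ratio cannot be told apart.

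**Figure D5:**
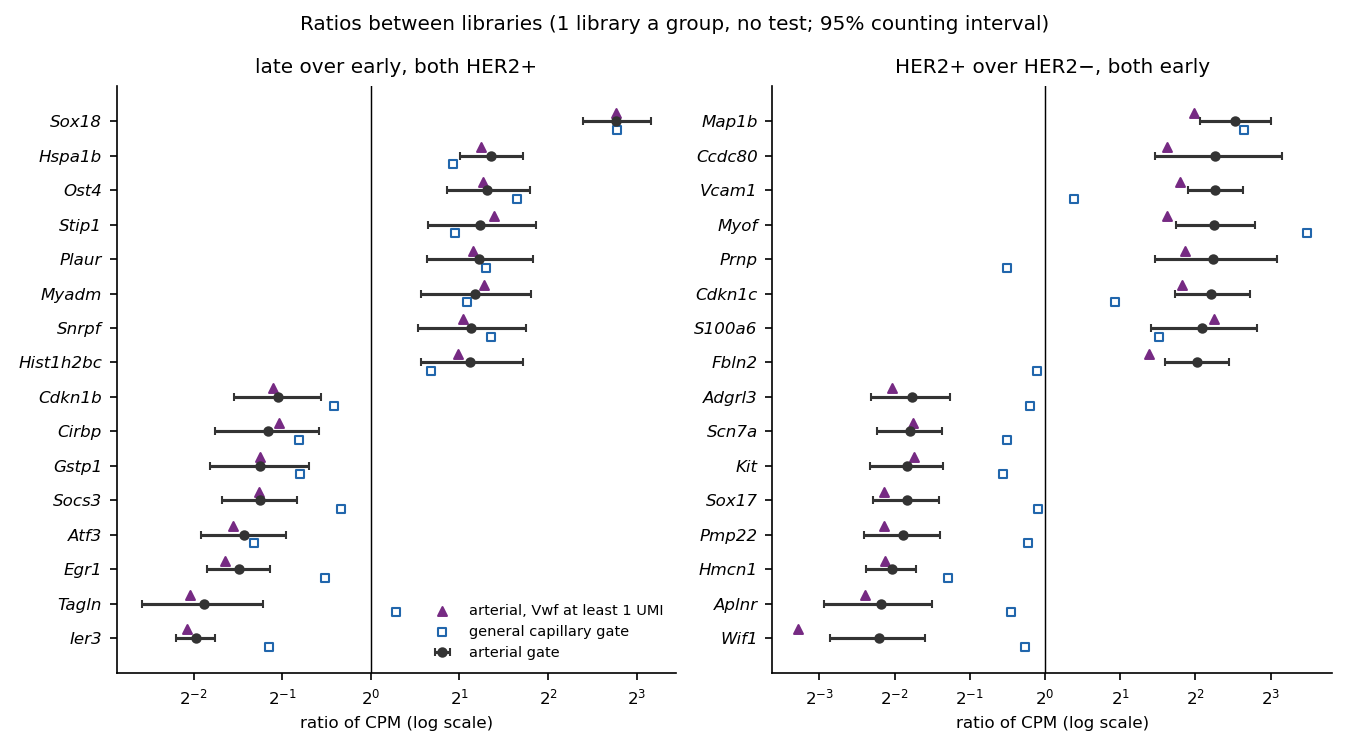
Ratios of CPM between libraries on a log axis for the genes named by rule, late over early HER2+ on the left and HER2+ over HER2- of the early stage on the right, for arterial cells (black, 95% counting interval), Vwf-positive arterial cells (triangles) and general capillary cells (squares). Sox18 has nearly the same ratio in all 3 groups of cells (6.81, 6.80 and 6.87), while Sox17 at 0.280 in arterial cells stands at 0.934 in general capillary cells.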

How the data were processed

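Single-cell RNA libraries (10x Chromium 3' v3 chemistry, per the labels' protocols) were deposited by the authors as unfiltered matrices of UMI counts, 27998 genes by 6794880 barcodes in each of 3 libraries. Per the file headers the counts are whole numbers written by matrix software version 3.1.0. The submitters' processing notes give mm10 as the genome. No source used here names an aligner or gene annotation. The intervals given cover counting error only.

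Barcodes were kept and gated by the rule that opens the report, UMIs were summed per library and group of cells, and sums were compared with edgeR 4.0.16 (quasi-likelihood, TMM, a term for the library, 3 libraries, default filter on low counts) in R 4.3.3. P-values were adjusted by Benjamini-Hochberg over all genes kept, leaving out 10 genes of the gates. Between libraries exact Poisson and conditional binomial intervals were used (scipy 1.17.1). Thinning drew 1000 UMIs from each cell. Doublets were marked with Scrublet in scanpy 1.11.5 and kept, apart from an alternative without them. On simulated counts for arterial against general capillary cells (7824 genes), 68.4% of 2-fold and 100% of 4-fold changes were recovered, with 1.20% false among 167 genes called. For Vwf-positive against Vwf-negative arterial cells only 46% of 2-fold changes were recovered, and 99% of 4-fold changes, with 2.7% false among 149 called. Against Vwf-positive and Car4-positive cells 88% and 82% of 2-fold changes were recovered, with 1.57% and 3.7% false. Changes were planted only in genes above a floor of expected UMIs, and counts were drawn from the model that edgeR fits. The recovered shares thus do not cover genes with few UMIs, and no rate covers how real libraries depart from that model.

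The members and gene lists were chosen with earlier results of these data known. Besides list genes, genes were named by size: for general capillary cells the 15 highest and 15 lowest called with at least 50 CPM and 1 direction in all 3 libraries, for other groups 6 and 6, and between libraries the 8 highest and 8 lowest ratios at 100 CPM whose interval leaves out 1, with under 25% of the UMIs in one cell. Genes of the gates, predicted models, ribosomal and mitochondrial genes were not named. MHC class II genes were named from the share of cells with a UMI. The RefSeq promoter table holds no entry for Mgp or Gpihbp1. Alternatives were DESeq2 1.42.0, no library term, no filter, thinning, other Gja5 and UMI thresholds, doublets or smooth muscle UMIs left out, and each library left out in turn. The splits by Vwf and the removal of barcodes with fibroblast or mammary UMIs were added after seeing the data. Some results on items withheld from reporting are not reported here.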

Additional observations from a re-analysis of the deposited data

Results flagged for a closer look

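Some genes ran in opposite directions in different libraries, with intervals apart. No such difference was tested, as each group is 1 library. The arterial over general capillary ratio of the fibroblast gene Inmt was 6.19 in the early HER2- library, against 0.0127 in the late and 0.0927 in the early HER2+ library. That of Mfap4, a microfibril gene, was 4.49 in the early HER2- library, against 0 in the late and 0.134 in the early HER2+ library. The ratios of Pdgfra and Tcf21 were 5.66 and 5.79 in the early HER2- library, against 0 for each in the late library. Between early HER2+ and HER2- cells Inmt had a ratio of 0.0855 in arterial and 5.70 in general capillary cells, and Mfap4 of 0.0926 and 3.1. Without the barcodes that hold 3 or more fibroblast or mammary marker UMIs, the early HER2- arterial counts of Inmt were 8 in place of 91, of Mfap4 2 in place of 36, and of Pdgfra and Tcf21 0 in place of 8 and 6, and the Inmt ratio there was 1.22.

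Fabp4, a fatty acid binding protein, had an arterial over general capillary ratio of 2.06 in the early HER2- library, against 0 in the late and 0.0112 in the early HER2+ library. Cdkn2c had 2.03 in the early HER2- against 0.276 in the late library. Meox1 had 3.14 in the early HER2- against 0.336 in the early HER2+ library, and its HER2+ over HER2- ratio was 0.265 in arterial and 2.47 in general capillary cells. Without the mixed barcodes these ratios stood at 2.10 for Fabp4, 1.64 for Cdkn2c and 3.24 for Meox1 in the early HER2- library. The surfactant genes Sftpb and Sftpa1 and the phosphate transporter Slc34a2 had ratios of 1.72, 1.53 and 3.24 in the early HER2+ library, against 0.535, 0.515 and 0.260 in the late library.

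Gja5 was found in 24.7% of the mesenchymal cells of the early HER2- library, outside the endothelial cells compared here, against 1.44% in the early HER2+ library.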

How the results depend on the processing

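Against general capillary cells (437 higher, 407 lower) DESeq2 called 244 and 193 genes, the fit without the library term 261 and 139, without the count filter 672 and 701, and with thinned cells 192 and 200. With arterial cells without Vwf 34 and 20 were called, and 620 lower with those that hold it. Leaving out 1 library gave 140 to 692 higher and 41 to 694 lower; without the early HER2+ library 140 and 41 were called, without the late library 282 and 147, and without the early HER2- library 692 and 694. Without the early HER2+ library 59 of 140 named or listed genes kept their call and 81 lost it. Against Vwf-positive cells (163, 176) DESeq2 called 66 and 65, no filter 268 and 319, Vwf-positive arterial cells alone 292 and 355, and leaving out 1 library 88 to 249 and 111 to 306. Against Car4-positive cells (804, 783) DESeq2 called 421 and 423, leaving out 1 library 432 to 1001 and 462 to 950. By Vwf (248, 198) DESeq2 called 93 and 87, leaving out 1 library 139 to 254 and 103 to 212. The cause was not tested.

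Arterial shares with at least 2 Gja5 UMIs were 17.8%, 4.04% and 1.28%, thinned 10.7%, 4.32% and 1.77%, without Vwf 2.45%, 1.98% and 2.01%, and with Vwf 8.29% and 2.15% in the early HER2+ and HER2- libraries. Late over early HER2+ genes past 1.5-fold (650, 719) were 256 and 258 at 50 counts or more, 297 and 349 thinned, and 234 and 273 without Vwf. HER2+ over HER2- (876, 1115) they were 413 and 535, 485 and 595, and 519 and 666. With arterial cells without Vwf set against general capillary cells, 16 genes turned direction, none of them called there: Atf3 -0.26, Tbx3 0.13, Plxnd1 -0.078, Ccnd2 -0.029, Fosb -0.17, Lyve1 -0.12, Cdkn1c -0.054, Ier2 -0.11, Lamb2 -0.27, Ntn1 -0.12, Cd300lg 0.29, Fos -0.22, Gpihbp1 0.15, Hes1 0.048, Adamts1 -0.38 and Sema6a 0.15 (log2). The library term pairs the sums of one library, and between libraries no paired analysis was possible because each group is 1 library.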

Other observations

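Among cell cycle genes, 2 of 9 were higher and 1 lower in arterial than in general capillary cells. Cdkn1c, an inhibitor of cyclin-dependent kinases, was at 223, 260 and 56.2 CPM in arterial cells of the late HER2+, early HER2+ and early HER2- libraries, against 28.1, 36.5 and 19.2 CPM in general capillary cells (log2 difference 2.45 ± 0.24). Ccnd2, a G1 cyclin, was at 295, 265 and 142 CPM against 146, 126 and 85.0 CPM (0.99 ± 0.13). Both were turned in arterial cells without Vwf, at -0.054 for Cdkn1c and -0.029 for Ccnd2, neither called. Aldh2, the mitochondrial aldehyde dehydrogenase, was at 1415, 1467 and 1548 CPM in arterial cells, against 992, 1008 and 1011 CPM (0.61 ± 0.09, edgeR adjusted p = 0.0016), and at 0.59 with arterial cells without Vwf. Between Vwf-positive and Vwf-negative arterial cells the log2 difference of Aldh2 was 0.04 (adjusted p = 0.95).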
